A study of Homo sapiens with 6 samples.

Results

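Retained intron isoforms are annotated transcripts that keep a stretch of intron within their mature sequence. The sites described here are the edited cytosines (Cs) listed for such isoforms, that is, for transcripts that GENCODE release 44 types as retained intron, on the strand of the isoform and inside its exons. Over 6 libraries there were 16046 such listings among 839700 in all, and they fell on 13844 distinct genome positions in 516 isoforms of 446 genes. No measured value was used to choose them. The libraries were HEK293T cells, a human embryonic kidney line that the labels also spell HEK293XT, fixed in methanol on slides. In RBFOX2-INSCRIBE (n = 2) the cells received a rabbit antibody against the splicing factor RBFOX2 and then Apo1-Nb, the cytidine deaminase APOBEC1 fused to a nanobody that binds rabbit antibodies. Enzyme-only libraries (n = 2, replicates 2 and 3) received Apo1-Nb without the antibody, and buffer-only libraries (n = 2) received neither. All 6 were full-length RNA libraries read on a long-read sequencer, so that each edit could be assigned to an isoform. The methods describe replicates as separate slides of 1 cell line, so p-values measure the spread between slides.

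The reading frame of a retained intron usually meets a stop codon, and many such transcripts stay in the nucleus or are degraded. Genes of RNA-binding and splicing proteins are known for introns that are spliced late and detained in the nucleus. RBFOX2 binds UGCAUG, often in introns beside alternative exons, and acts on splicing from there. APOBEC1 turns C into U and is known to favour a C that follows A or U. An edited C near UGCAUG inside a retained intron is therefore the kind of site that an antibody against RBFOX2 could mark.

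Within the isoforms, a C was counted as intron sequence when no exon of a protein-coding transcript of the gene covered it, and as exon sequence otherwise. By this definition 50.5% of the 402974 Cs of the isoforms were intron sequence, and 90.0% of these lay inside an annotated intron of a protein-coding transcript. The median length of these introns was 1406 nt. In 3.77% of the Cs the gene had no protein-coding transcript, as with LINC00641, a long non-coding RNA gene. Retained intron isoforms with a site had a median length of 3404.5 nt, against 3250 nt for the 8753 protein-coding isoforms with a site, and a median of 5 exons against 9. UGCAUG occurred in 62.0% of them and in 55.4% of the protein-coding isoforms, at 0.292 and 0.267 copies per 1000 nt.

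The sites below show what an edited intron looked like. The first 6 are given by falling mean edit fraction (the share of reads at the position that carried U). They come from 15 intron sequence sites found in both RBFOX2-INSCRIBE libraries and in no control library. These 15 had UGCAUG within 20 nt and edit fractions under 0.8. No gene was used again, and sites in part of the genome were passed over, so the 6 need not be the highest of the 15. Each sequence is the RNA strand of hg38, 5′ to 3′, with T written for U, and the capitals mark UGCAUG and the edited C.
NKTR: tgaaactaatgCTGCATGaaaatacttta
PNISR: tattctctTGCATGttttaaCtcttaaag
NFIA: aaagtttTGCATGgactcagaCtaaagaa
WSB1: aattTGCATGtctgccttaattaaCttaa
RBM39: tagcagtaTGCATGcattatCactggtgt
DST: cctgataTGCATGtaaaactgtCatgtcat

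The NKTR site (chr3:42619814-42619842, plus strand) was the only one of the 6 in which the edited C came before the motif, as the base next to it. It lay in an intron of 307 nt of NKTR, a cyclophilin with an arginine- and serine-rich domain, 117 nt from the 5′ splice site, and was edited in 20% and 13.6% of reads in RBFOX2-INSCRIBE replicates 1 and 2. The PNISR site (chr6:99404468-99404496, minus strand) was edited in 8.70% and 13.3% of reads, 7 nt 3′ of the motif in an intron of 720 nt. PNISR is an arginine- and serine-rich nuclear protein.

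The other 4 sites had lower fractions. The NFIA site (chr1:61119602-61119630, plus strand) was edited in 2.70% and 4.17% of reads, 9 nt 3′ of the motif in an intron of 44014 nt of this transcription factor gene. The WSB1 site (chr17:27308906-27308934, plus strand) was edited in 3.57% and 2.04%, 15 nt 3′ of the motif and 170 nt before the 3′ splice site. The RBM39 site (chr20:35739932-35739960, minus strand), in a gene for a splicing coactivator, was edited in 0.813% and 4.11%. In DST, which encodes a cytoskeletal linker, the site (chr6:56484720-56484749, minus strand) was edited in 2.08% and 2.74%. The number of reads behind a fraction is unknown, so no interval can be given for it.

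With the motif condition dropped, 185 intron sequence sites qualified. The same steps were used, so the 3 sites taken need not be the highest of the 185. They were those of NKTR and PNISR above and 1 in MMS22L, a gene of replication fork repair. That site had no UGCAUG within 50 nt (the nearest was 186 nt away) and was edited in 23.5% and 8.33% of reads.
MMS22L: atagccttttCtattttgaca
It lies at chr6:97267615-97267635 on the minus strand, and the capital marks the edited C.

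Sites were most numerous with the antibody. RBFOX2-INSCRIBE replicates 1 and 2 had 3936 and 4338 distinct sites in retained intron isoforms, enzyme-only replicates 2 and 3 had 1656 and 3212, and buffer-only replicates 1 and 2 had 1413 and 1420. Both RBFOX2-INSCRIBE libraries lay above all 4 controls, and enzyme-only replicate 3 was closer to them than to enzyme-only replicate 2. The means were 4137 ± 284 (SD, n = 2) and 2434 ± 1100.3 (SD, n = 2), a ratio of 1.70, which became 2.5 when enzyme-only replicate 3 was left out and 1.29 when replicate 2 was. The exact permutation test over libraries gave p = 0.333, the smallest two-sided p that 2 libraries against 2 allow, and this limit holds for all tests over libraries below. The files hold no read totals, so whether a deeper library or more editing gave more sites was not tested. Listings on the strand opposite to the isoform, which the enzyme is not expected to make, numbered 6867 and 6716 in RBFOX2-INSCRIBE, 4436 and 6271 in enzyme-only and 6400 and 6252 in buffer-only over all isoforms, and were fewest in enzyme-only replicate 2.

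The share of editing that fell on retained intron isoforms did not separate the groups. Of all distinct exonic sites, these isoforms held 1.96% and 2.11% in RBFOX2-INSCRIBE, 1.93% and 2.09% in enzyme-only and 1.94% and 1.99% in buffer-only. RBFOX2-INSCRIBE minus enzyme-only was 0.0276 percentage points (exact permutation p = 0.667), and its sign changed with the processing. Between 305 and 355 retained intron isoforms had a site in a library, and 170 had a site in all 6.

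**Figure D1:**
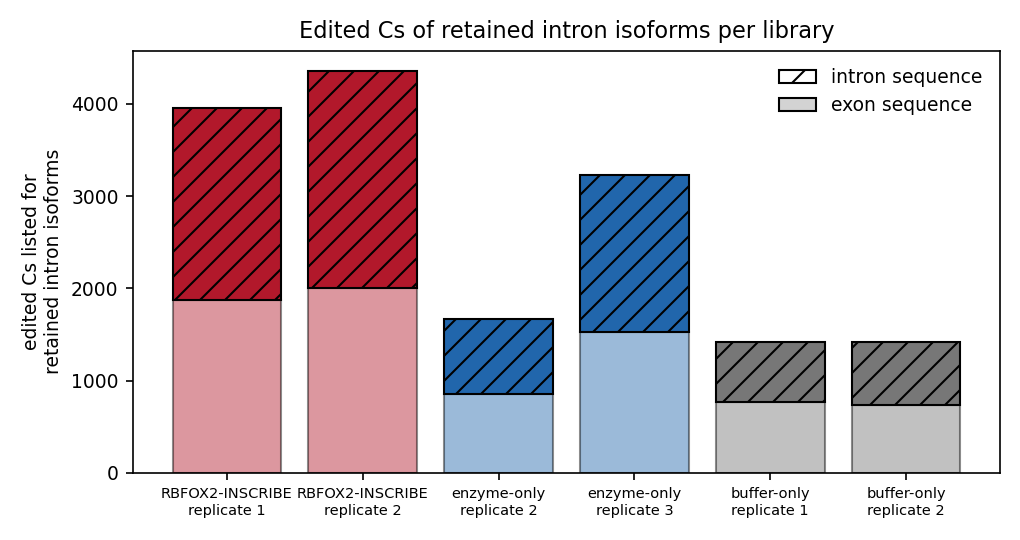
Edited Cs listed for retained intron isoforms (y axis, number of sites) in each of the 6 libraries, split into intron sequence (hatched) and exon sequence (pale). RBFOX2-INSCRIBE had 3958 and 4359 listings, enzyme-only 1663 and 3224 and buffer-only 1422 and 1420.

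Intron sequence took a slightly larger part of the sites in libraries that had received Apo1-Nb. In RBFOX2-INSCRIBE, 52.7% (95% Wilson interval 51.1 to 54.2) and 53.9% (52.4 to 55.4) of sites were intron sequence, in enzyme-only 48.9% (46.5 to 51.3) and 52.7% (51 to 54.4), and in buffer-only 46.0% (43.4 to 48.6) and 48.5% (45.9 to 51.1). Intervals here and below cover counting of sites only. Divided by the share of intron sequence among the Cs of the same isoforms, these were ratios of 1.13 and 1.12, of 1.06 and 1.07, and of 0.997 and 1.02. The 3 groups did not overlap in this ratio, and RBFOX2-INSCRIBE minus enzyme-only was 0.0582 (exact permutation p = 0.333). Positions near splice sites showed no single pattern. Within 100 nt past the 5′ splice site, sites over those that an even spread over the Cs would give were 1.12 and 0.864 in RBFOX2-INSCRIBE, 0.646 and 0.740 in enzyme-only and 0.869 and 0.80 in buffer-only. Within 100 nt of the 3′ splice site the values were 0.909 and 0.995 in RBFOX2-INSCRIBE and between 0.698 and 0.998 in the controls. From 101 to 300 nt past the 5′ splice site the values were 1.31 and 1.11 in RBFOX2-INSCRIBE, 0.995 and 0.904 in enzyme-only and 0.969 and 1.02 in buffer-only, and both RBFOX2-INSCRIBE libraries were above all controls. This also held from 301 to 1000 nt before the 3′ splice site (1.25 and 1.17 against 0.960 to 1.11 in the controls) and farther from it.

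Edit fractions at these sites were low in all libraries. The median was 1.66% and 1.67% in RBFOX2-INSCRIBE, 2.27% and 1.67% in enzyme-only and 1.75% in both buffer-only libraries. In every library the median was higher in intron than in exon sequence, for example 1.92% against 1.32% in RBFOX2-INSCRIBE replicate 1 and 2.13% against 1.35% in buffer-only replicate 1. Inside single isoforms the gap was near 0: in isoforms with at least 5 sites of each kind (29 and 36 in RBFOX2-INSCRIBE, 9 to 27 in the controls), the median difference lay between -0.0210 and 0.0516 percentage points in the 6 libraries.

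The base before the edited C separated the 3 groups. A or U came before 78.2% and 78.0% of sites in RBFOX2-INSCRIBE, 69.5% and 74.6% in enzyme-only and 44.2% and 44.1% in buffer-only, against 52.1% of all Cs in these isoforms. Buffer-only libraries instead had G before 34.5% and 35.7% of sites, while RBFOX2-INSCRIBE had 14.4% and 14.3%, and 23.0% of all Cs follow G. RBFOX2-INSCRIBE exceeded enzyme-only by 6.11 percentage points (exact permutation p = 0.333), with enzyme-only replicate 2 lowest of the 4 libraries that had received the enzyme. In protein-coding isoforms the shares with A or U were 73.6% and 74.9%, 61.8% and 69.1%, and 41.9% and 42.4%, lower than in retained intron isoforms in each of the 6 libraries. The share over all Cs of protein-coding isoforms was not counted, so a difference in base composition is not removed.

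UGCAUG stood closer to the sites of retained intron isoforms in RBFOX2-INSCRIBE than in either control. A site counted as near when the whole motif lay in the window from 50 nt before to 50 nt after it, and the share of near sites was divided by the share of near Cs in the same exons. Near sites were 305 of 3958 (7.71%, 95% Wilson interval 6.92 to 8.58) and 293 of 4359 (6.72%, 6.02 to 7.50) in RBFOX2-INSCRIBE. They were 67 of 1663 (4.03%, 3.18 to 5.08) and 116 of 3224 (3.6%, 3.01 to 4.30) in enzyme-only, and 51 of 1422 (3.59%, 2.74 to 4.68) and 50 of 1420 (3.52%, 2.68 to 4.61) in buffer-only. The ratios were 1.98 and 1.72 in RBFOX2-INSCRIBE, 1.17 and 1.04 in enzyme-only and 1.09 and 1.04 in buffer-only. Both RBFOX2-INSCRIBE libraries lay above all 4 controls, and the difference from enzyme-only was 0.745 (exact permutation p = 0.333).

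In both RBFOX2-INSCRIBE libraries the preference was larger in intron sequence than in exon sequence of the isoforms. In intron sequence the UGCAUG ratio was 2.18 and 1.93 in RBFOX2-INSCRIBE (185 of 2084 and 185 of 2350 sites), 1.09 and 1.12 in enzyme-only and 0.984 and 1.17 in buffer-only, a difference of 0.948 from enzyme-only (exact permutation p = 0.333). In exon sequence of the same isoforms it was 1.59 and 1.35, 1.31 and 0.977, and 1.17 and 0.875. Intron minus exon sequence was 0.584 ± 0.00678 (SD, n = 2) with the antibody and -0.0374 ± 0.261 (SD, n = 2) with the enzyme alone (exact permutation p = 0.333). This difference was not run under other settings. With a background over all retained intron isoforms in place of the same exons, RBFOX2-INSCRIBE had 2.98 and 2.64 in intron sequence and 2.85 and 2.49 over all sites. Sites of protein-coding isoforms had ratios of 1.44 and 1.49 in RBFOX2-INSCRIBE and between 0.986 and 1.01 in the 4 controls. Retained intron minus protein-coding was 0.386 ± 0.213 (SD, n = 2) with the antibody and 0.109 ± 0.108 (SD, n = 2) with the enzyme alone (exact permutation p = 0.333). Isoforms typed as targets of nonsense-mediated decay had 1.39 and 1.51 in RBFOX2-INSCRIBE but also 1.22 and 1.49 in buffer-only, on 15 and 23 near sites.

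**Figure D2:**
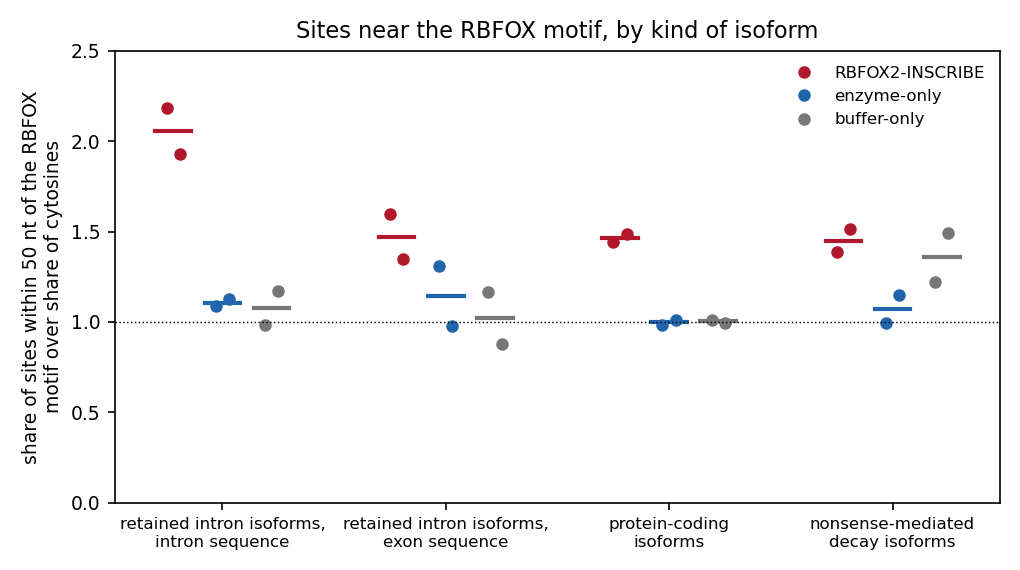
Share of sites within 50 nt of UGCAUG (the RBFOX motif) divided by the share of Cs within 50 nt of it in the same exons (y axis), for 4 kinds of site. Points are libraries and bars group means, and the dotted line at 1 is an even spread over the Cs. Intron sequence of retained intron isoforms in RBFOX2-INSCRIBE stood highest, at 2.18 and 1.93.

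Among all hexamers, UGCAUG ranked first. Each hexamer for which an even spread over the Cs gave at least 40 windows was ranked by the same ratio over all sites of retained intron isoforms, and UGCAUG was number 1 of 2908 in RBFOX2-INSCRIBE replicate 1 and number 1 of 2961 in replicate 2. GCAUGC, which can overlap it, was second in both, at 1.79 and 1.71. In replicate 2 the next hexamer, UAUAAG, was at 1.70, close to the 1.72 of UGCAUG. In the controls UGCAUG ranked 283 of 1769 and 1073 of 2834 in enzyme-only and 301 of 1319 and 492 of 1294 in buffer-only. No control library had a hexamer containing GCAUG among its first 3.

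Sites were most frequent just 3′ of the motif. From 1 to 20 nt on its 3′ side there were 84 and 99 sites in RBFOX2-INSCRIBE, 2.55 and 2.67 times those of an even spread over the Cs, against 1.16 ± 0.0229 (SD, n = 2) in enzyme-only and 0.945 ± 0.148 (SD, n = 2) in buffer-only. From 1 to 20 nt on the 5′ side the values were 2.07 and 1.5, with 71 and 57 sites. The C inside the motif was edited less often than an even spread would give in RBFOX2-INSCRIBE, at 0.389 and 0.619 with 4 and 7 sites, and also in enzyme-only, at 0.867 and 0.421 with 3 sites each. Between 101 and 200 nt away on either side, RBFOX2-INSCRIBE was between 0.930 and 1.22.

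**Figure D3:**
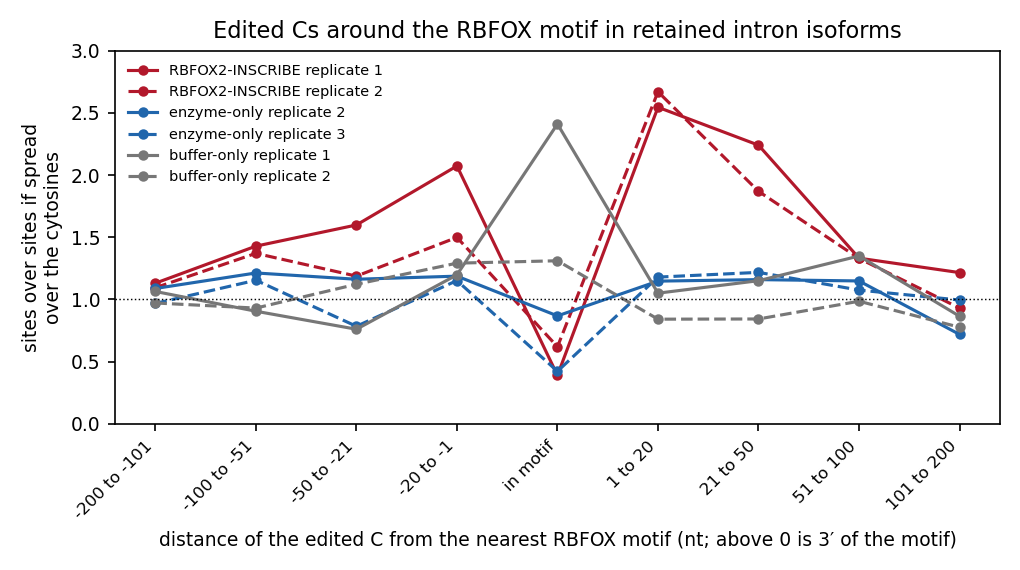
Sites of retained intron isoforms by distance from the nearest UGCAUG (the RBFOX motif; x axis in nt, bins of unequal width, above 0 is 3′ of the motif), divided by the number that an even spread over the Cs of the same exons would give (y axis), 1 line per library. RBFOX2-INSCRIBE reached 2.55 and 2.67 from 1 to 20 nt 3′ of the motif. The high point of buffer-only replicate 1 inside the motif rests on 7 sites.

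Near sites were spread over many isoforms. The 305 and 293 near sites of RBFOX2-INSCRIBE lay in 99 and 107 isoforms, and the leading isoform, ENST00000603233 of NFIA, held 23 and 27. That transcript is 1 exon of 44880 nt on chromosome 1 (61088149 to 61133028), with 22 copies of UGCAUG, and 97.6% of its 7538 Cs are intron sequence. Over all its sites, 10.4% (23 of 221) and 12.6% (27 of 215) were near UGCAUG in RBFOX2-INSCRIBE, 5.56% and 3.03% in enzyme-only and 8.77% and 5.56% in buffer-only, against 4.07% of its Cs. Without this isoform the difference in the UGCAUG ratio from enzyme-only was 0.688, and 0.868 in intron sequence.

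The next isoforms by near sites were ENST00000358675 of ENAH, ENST00000462710 of SRRM1, ENST00000555379 of LINC00641 and ENST00000498238 of RSRP1, with 22, 14, 13 and 11 distinct near sites in the pair of RBFOX2-INSCRIBE libraries. SRRM1 encodes a splicing coactivator with arginine- and serine-rich repeats, and all 14 of its near sites were intron sequence. There 18.8% and 17.4% of sites were near UGCAUG in RBFOX2-INSCRIBE, 13.3% and 9.68% in enzyme-only and 0% and 16.7% in buffer-only, against 8.21% and 7.97% of Cs of the exons with sites in RBFOX2-INSCRIBE. In ENAH, an actin regulator, the near sites were all exon sequence and made up 14.3% and 14.2% of sites in RBFOX2-INSCRIBE, while buffer-only had 20.9% and 8.0%. In RSRP1, 14.3% and 11.5% of sites were near, below the 16.7% and 17.0% of Cs. The motif preference was therefore not shared by all isoforms with many near sites.

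In RBFOX2-INSCRIBE, sites found in both libraries carried the motif more often than sites found in 1. There were 612 such sites, 15.5% of replicate 1 and 14.1% of replicate 2, of which 91 (14.9%, 95% Wilson interval 12.3 to 17.9) were near UGCAUG. Of the 7050 sites found in 1 of its libraries, 5.82% (5.29 to 6.39) were near. The shares in this paragraph were not divided by the share of near Cs in the same exons, so a difference in the exons involved is not removed. ENAH alone held 84 of the 612, and 9.96% and 10.2% of the Cs of its exons with RBFOX2-INSCRIBE sites were near UGCAUG. Enzyme-only had 106 sites in both libraries and buffer-only 66, with 5 (4.72%, 2.03 to 10.6) and 3 (4.55%, 1.56 to 12.5) near UGCAUG, and 3.67% (3.17 to 4.25) and 3.48% (2.85 to 4.24) of their sites in 1 library were near. Of the 612, 390 in 99 genes were not listed for a retained intron isoform in any control library. Listings of the same positions for other types of isoform were not considered here. Of the 390, 61 (15.6%, 12.4 to 19.6) were near UGCAUG and 193 (49.5%) were intron sequence.

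For each isoform, editsC is the percentage of its Cs that were edited. An isoform entered the fit, which covered all types of isoform, when its edited Cs averaged 5 or more over the libraries compared. Against enzyme-only, 171 of the 516 retained intron isoforms did so and 345 did not. Their editsC had a median of 1.84% in RBFOX2-INSCRIBE, 1.04% in enzyme-only and 0.554% in buffer-only. At a limma adjusted p of 0.05, 1 of the 171 passed, beside 3 of 5717 isoforms of all types (0.0525%), and 24 were under 0.05 before adjustment. The number passing was 46 of 181 when enzyme-only replicate 3 was left out, beside 1856 of 5750 isoforms of all types, and 0 when any other library was. Their median log2 difference was 0.94, beside 0.87 over all isoforms, and 152 of 171 were above 0. With edited Cs scaled to the same total per library the medians were 0.16 and 0.06, and 104 of 171 were above 0. In 78 of 171 (45.6%) the lower RBFOX2-INSCRIBE library was above the higher enzyme-only library, beside 51.1% of all isoforms tested, and the reverse held in 5 (2.92%), beside 3.39%. These shares were near the background.

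The retained intron isoform that passed was ENST00000487466 of NKTR (chromosome 3, 42600672 to 42627310, 370 Cs), the isoform of the first sequence above. It had 25 and 28 edited Cs in RBFOX2-INSCRIBE and 0 in each of the 4 control libraries, and editsC was 7.16% ± 0.573 (SD, n = 2). Taking 3 edited Cs as the limit that a count of 0 allows in a library, it was at least 8.83-fold higher than in either control group. The fitted log2 difference from enzyme-only was 5.75 (SE 0.871, limma adjusted p = 0.000859), a size that depends on the pseudocount of 0.5. The call was lost with a pseudocount of 0.1 (limma adjusted p = 0.270), a filter of 1 edited C (0.0597), edit fractions of at least 0.02 (0.240) and equal totals (0.640). It was also lost without RBFOX2-INSCRIBE replicate 1 (limma adjusted p = 0.864) or 2 (0.909) and without enzyme-only replicate 2 (0.326), and over all alternatives the limma adjusted p ran from 2.6e-06 to 0.909. Of its sites, 8 were found in both RBFOX2-INSCRIBE libraries, 14 and 19 were intron sequence, and 8 and 4 were near UGCAUG, against 4.09% and 4.65% of the Cs of the same exons.

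Other isoforms of NKTR were edited in the controls, at 13 and 34 positions in enzyme-only and 8 and 19 in buffer-only. Within the exons of ENST00000487466, other isoforms had 1 and 11 positions in enzyme-only and 1 in each buffer-only library. A lack of edits and a lack of reads assigned to the isoform cannot be told apart where it is not listed. Of the next 4 isoforms by p, ENST00000498518 of LUC7L2, a component of the U1 snRNP family, had 9 and 14 edited Cs in RBFOX2-INSCRIBE, 0 and 0 in enzyme-only and 1 and 3 in buffer-only. It was at least 3.83-fold higher than enzyme-only (limma adjusted p = 0.159), and 33.3% and 28.6% of its RBFOX2-INSCRIBE sites were near UGCAUG, against 5.95% and 7.02% of Cs. Within the exons of ENST00000498518, other isoforms had 45 and 84 positions in enzyme-only and 85 and 78 in RBFOX2-INSCRIBE. ENST00000377057 of CEMIP2 had 17 and 15 edited Cs, against 2 and 1 in enzyme-only (limma adjusted p = 0.163), though only 0.984% of its Cs were intron sequence.

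Against buffer-only, 91 of 164 retained intron isoforms passed, all of them higher, beside 3221 of 5362 isoforms of all types (60.1%). Their share, 55.5%, was close to that background, and 13 and 10 passed when RBFOX2-INSCRIBE replicate 1 or 2 was left out. The median log2 difference was 1.72, beside 1.57 over all isoforms, and 2 isoforms passed with equal totals per library, where 23 of all types did. The 2 largest log2 differences among isoforms that were also above both enzyme-only libraries were those of NKTR and of ENST00000502904 of HNRNPH1, an hnRNP protein that regulates splicing. HNRNPH1 had 19 edited Cs in each RBFOX2-INSCRIBE library, 3 and 4 in enzyme-only and 0 in both buffer-only libraries, at least 6.33-fold over buffer-only (limma adjusted p = 0.000545). That it lay above both enzyme-only libraries was a condition of the choice, and 51.1% of all isoforms tested did so. Its difference from enzyme-only had a log2 of 2.30 (SE 0.720, limma adjusted p = 0.1995). Within the exons of ENST00000502904, other isoforms had 8 and 12 edited positions in buffer-only, 17 and 24 in enzyme-only and 35 and 46 in RBFOX2-INSCRIBE.

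Of the 232 Cs of ENST00000505675 of FAM135A, 35 and 23 were edited with the antibody, 8 and 12 with the enzyme alone and 0 and 1 in buffer. Its log2 difference from buffer-only was 5.06 (SE 0.572, limma adjusted p = 0.000572), and it also passed between the controls. ENST00000488146 of DEPDC1 had 33 and 36, 6 and 6, and 2 and 3 edited Cs, with a log2 difference of 3.56 from buffer-only (limma adjusted p = 0.000491) and of 2.43 from enzyme-only (limma adjusted p = 0.163). Both isoforms are mostly exon sequence: 3.02% of the Cs of FAM135A and 12.9% of those of DEPDC1 were intron sequence, and each had few sites near UGCAUG (1 and 3 distinct positions). ENST00000460600 of PNISR, in which 80.8% of Cs are intron sequence, had 42 and 44, 10 and 24, and 6 and 3 edited Cs, a log2 difference of 3.19 from buffer-only (limma adjusted p = 0.00057).

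ENST00000527449 of RBM25, a splicing regulator, had 15 and 19 edited Cs, against 5 and 3 in enzyme-only and 2 and 1 in buffer-only, and no copy of UGCAUG. The isoforms of SEPTIN7 (ENST00000425198, a cytoskeletal GTPase), CASP2 (ENST00000472067, an apoptotic protease), PHF20L1 (ENST00000469979) and CRY1 (ENST00000552790, a repressor of the circadian clock) complete the 10 with the largest difference from buffer-only among those above both enzyme-only libraries. They had between 7 and 14 edited Cs in the RBFOX2-INSCRIBE libraries, and between 0 and 2 in the buffer-only libraries. In enzyme-only, SEPTIN7 had 2 and 9, CASP2 0 and 4, PHF20L1 3 and 2 and CRY1 0 and 3. The 10 were chosen from isoforms that had passed as higher than buffer-only, and their limma adjusted p lay between 0.000452 and 0.0340.

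The highest editsC among retained intron isoforms belonged to ENAH (19.6% ± 0.809 (SD, n = 2) in RBFOX2-INSCRIBE). SRRM1 followed with 15.3% ± 3.89 (SD, n = 2), then ARGLU1, a splicing modulator, with 14.9% ± 0.580 (SD, n = 2), WAPL, which releases cohesin from chromatin, with 14.0% ± 0.783 (SD, n = 2), and PNISR with 12.7% ± 0.418 (SD, n = 2). In enzyme-only they had 8.94% ± 6.37 (SD, n = 2), 6.02% ± 2.96 (SD, n = 2), 9.77% ± 8.40 (SD, n = 2), 5.81% ± 3.26 (SD, n = 2) and 5.03% ± 2.93 (SD, n = 2) in the same order. The 5 were chosen by their level in RBFOX2-INSCRIBE. ARGLU1 overlapped: its 115 edited Cs in enzyme-only replicate 3 exceeded the 106 and 112 in RBFOX2-INSCRIBE. In the other 4 both RBFOX2-INSCRIBE libraries were above both enzyme-only libraries, as in 51.1% of all isoforms tested. None passed against enzyme-only (limma adjusted p between 0.289 and 0.405), and all 5 passed against buffer-only, beside 60.1% of all isoforms.

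**Figure D4:**
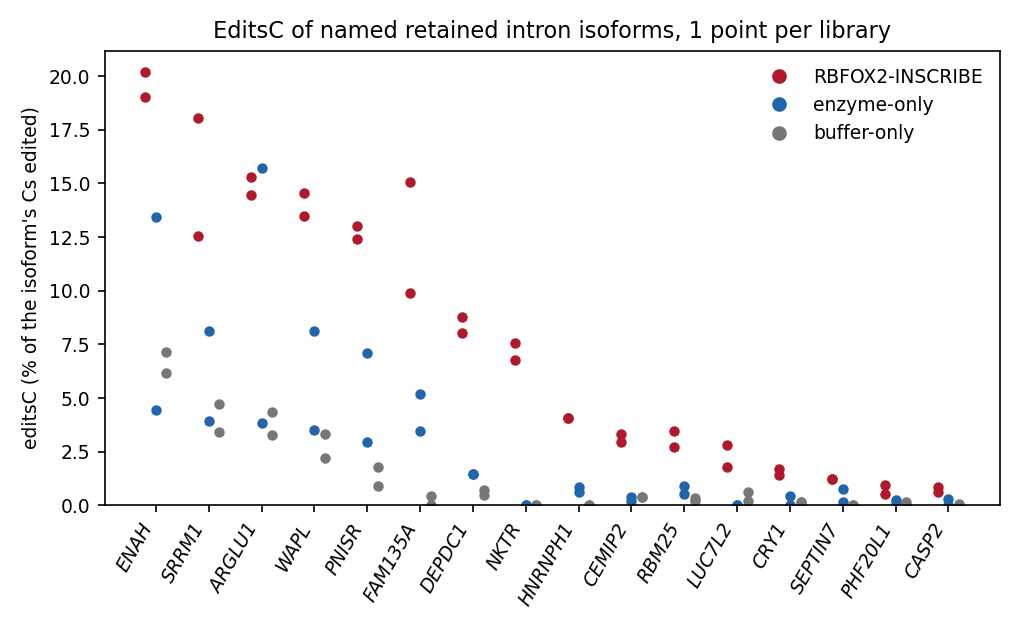
EditsC (y axis, percentage of the isoform's Cs that were edited) of the named retained intron isoforms with the largest difference from buffer-only, the smallest p against enzyme-only or the highest level, 1 point per library, ordered by the RBFOX2-INSCRIBE mean. Those with the largest difference from buffer-only were chosen among isoforms above both enzyme-only libraries. NKTR lies at 6.76% and 7.57% in RBFOX2-INSCRIBE and at 0 in the 4 controls.

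Isoforms differed in how far their sites recurred and in where they lay. In ENAH 84 positions were shared by the RBFOX2-INSCRIBE libraries, 24 of them in no control, and in WAPL 33 were shared, 20 of them in no control. All 11 shared positions of DEPDC1 were absent from the control listings of the same isoform. So were all 8 of NKTR, but its isoform had no site in any control library, so for that isoform their absence was given. Within the exons of the DEPDC1 isoform, other isoforms had 25 and 59 edited positions in enzyme-only and 13 and 9 in buffer-only. SEPTIN7 and PHF20L1 had no shared position, although each had edited Cs in both libraries. In ENST00000532683 of RBM25, 90.5% and 81.3% of RBFOX2-INSCRIBE sites were intron sequence, against 32.2% of its Cs, but enzyme-only had 91.4% and 82.5% and buffer-only 55.6% and 76.9%. In LUC7L2, 66.7% and 78.6% of RBFOX2-INSCRIBE sites were intron sequence, against 29.3% of its Cs, and none of the 4 sites in buffer-only was. SRRM1 had 93.8% and 94.2% of its sites there, against 77.2% of its Cs, with 86.7% and 80.6% in enzyme-only and 76.9% and 77.8% in buffer-only. LINC00641, all of whose Cs count as intron sequence, had 4 of 36 and 11 of 34 sites near UGCAUG in RBFOX2-INSCRIBE, 3 of 5 and 0 of 17 in enzyme-only and 0 in both buffer-only libraries. The share near UGCAUG thus varied between libraries of 1 group there. Its edited Cs had a log2 difference of 1.85 from enzyme-only (SE 0.774, limma adjusted p = 0.271) and of 2.61 from buffer-only (limma adjusted p = 0.00437).

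Between the controls, 2 of 99 retained intron isoforms passed, beside 37 of 4438 of all types (0.834%). ENST00000505675 of FAM135A was the first. The second was ENST00000480029 of U2SURP, which encodes a protein associated with the U2 snRNP, with 8 and 18 edited Cs in enzyme-only and 0 and 4 in buffer-only. U2SURP had 16 and 17 in RBFOX2-INSCRIBE, within the range of enzyme-only. No retained intron isoform passed between the controls when any 1 of the 4 libraries was left out. No retained intron isoform passed as lower in RBFOX2-INSCRIBE or enzyme-only than in buffer-only.

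Isoforms with more copies of UGCAUG had larger differences from enzyme-only. The median log2 difference was 0.80 over the 46 tested isoforms with no copy, 0.93 over the 59 with 1 copy and 1.17 over the 66 with 2 or more. With equal totals per library the medians were 0.02, 0.12 and 0.47. Against buffer-only there was no such order, with medians of 1.73, 1.75 and 1.68. These medians describe the isoforms and were not tested.

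Within genes, the retained intron isoform did not gain more than its protein-coding partner as a rule. In 107 genes, both the most edited retained intron isoform and the most edited protein-coding isoform reached the filter. The log2 difference of RBFOX2-INSCRIBE from enzyme-only had a median of 0.91 over the retained intron isoforms and 0.88 over the protein-coding isoforms, and the gain was larger in the retained intron isoform in 59 of 107 genes. By limma, 0 of 107 genes (0%) passed an adjusted p of 0.05, and 3 were under 0.05 before adjustment. With 1 library left out the number passing ran from 1 to 21, the latter without enzyme-only replicate 3, and was 10 without enzyme-only replicate 2. Of these, 18 of 21 and 8 of 10 had the larger gain in the retained intron isoform.

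The smallest p for a larger gain of the retained intron isoform was in NKTR, where the protein-coding ENST00000232978 had 5 and 3 edited Cs with the antibody, against 2 and 12 in enzyme-only. The log2 gains differed by 6.10 (SE 0.970, limma adjusted p = 0.262). In LUC7L2 they differed by 4.1 (SE 0.969, limma adjusted p = 0.399), and the protein-coding isoform had 118 and 110 against 60 and 115. PHF20L1 came next, at 1.66 (limma adjusted p = 0.772). In the other direction stood BRD2, a reader of acetylated histones, whose retained intron isoform ENST00000464592 had 4 and 3 edited Cs with the antibody, against 6 and 12 in enzyme-only, while ENST00000607833 had 19 and 16 against 5 and 13 (difference -2.24, SE 0.472, limma adjusted p = 0.389). SLC6A15 at -2.39 and SCML1 at -0.98 followed (limma adjusted p = 0.772 for both).

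**Figure D5:**
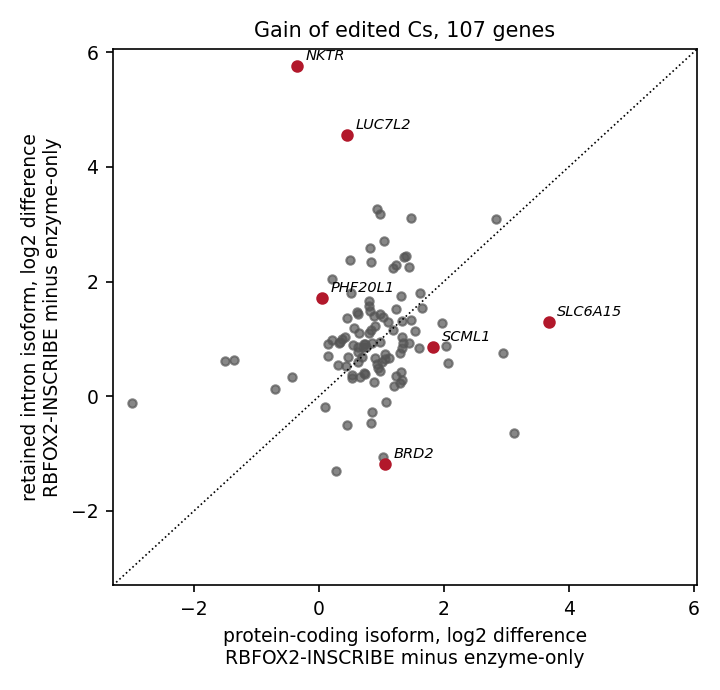
Log2 difference of RBFOX2-INSCRIBE from enzyme-only for the retained intron isoform (y axis) against the protein-coding isoform (x axis) of 107 genes, 1 point per gene, with the dotted line where both are equal. The 6 genes with the smallest p in either direction are named, and 59 of 107 points lie above the line.

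Genes were also described by lists of shared roles. The shares over all isoforms, beside which each count below stands, were 85.6% above 0 against enzyme-only, 54.0% above 0 with equal totals and 60.1% called against buffer-only, and no list was tested against them. Of 23 SR proteins and their kinases, which bind exonic enhancers or phosphorylate those that do, 8 had a retained intron isoform with a site. All 7 tested isoforms had log2 differences from enzyme-only above 0 (4 of 7 with equal totals), with a median of 1.19, beside 0.87 over all isoforms, and none passed. Against buffer-only 5 of 7 passed as higher, beside 60.1% of all isoforms. SRRM1 had the largest difference, 1.39 (SE 0.618), and SRSF5 the second, 1.29. CLK1, the kinase of SR proteins known for a retained intron, had the smallest, 0.33, with 29 and 19 edited Cs against 11 and 31. For hnRNP and PTB proteins 6 of 7 tested isoforms were above 0 (4 of 7 with equal totals; median 0.99), beside 85.6% of all isoforms, and 3 of 7 passed against buffer-only, beside 60.1%. HNRNPH1 (2.30) and HNRNPU (2.16) had the largest values, and EWSR1 the smallest (-0.60, 15 and 9 edited Cs against 20 and 16). The 20 in enzyme-only replicate 2 had a median and a highest edit fraction of 50%, against a median of 1.89% in enzyme-only replicate 3. The number of reads behind them is unknown.

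In core spliceosome genes all 5 tested isoforms were above 0 against enzyme-only, beside 85.6% of all isoforms, but 2 of 5 with equal totals, beside 54.0%. Against buffer-only 4 of 5 passed, beside 60.1%. LUC7L2 was largest, SF3B1, a U2 snRNP subunit, was next at 1.44, and U2SURP was smallest at 0.44. Among RBFOX and other splicing regulators the 3 tested isoforms (2 of RBM25 and 1 of RBM39) all passed against buffer-only, with 1.99 and 0.66 (ENST00000527449 and ENST00000532683 of RBM25) and 1.15 (RBM39) against enzyme-only, and RBM39 was above 0 with equal totals while ENST00000532683 was not. In RBM39, 80.0% and 78.4% of RBFOX2-INSCRIBE sites were intron sequence, against 37.0% of its Cs, and 20% and 21.6% were near UGCAUG, against 4.44% and 4.98% of Cs. Enzyme-only replicate 3 was similar, with 76.2% intron sequence and 23.8% near UGCAUG among 21 sites. Enzyme-only replicate 2 had 58.3% intron sequence and 0 of 12 sites near UGCAUG, and buffer-only had 29.4% and 11.1% intron sequence.

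All 3 tested isoforms of DEAD and DEAH box helicases passed against buffer-only, where 60.1% of all isoforms did. The isoform ENST00000216019 of DDX17 had 0.94 against enzyme-only, and ENST00000581230 and ENST00000579461 of DDX5 had 0.74 and 0.69, but 1 of the 3 was above 0 with equal totals. All 6 tested isoforms of genes known for detained introns passed against buffer-only, beside 60.1% of all isoforms, and 2 of 6 were above 0 against enzyme-only with equal totals, beside 54.0%. SRSF5 and CLK1 had the largest and smallest values among them, as given above. Aminoacyl-tRNA synthetases had 2 tested isoforms, of GARS1 (1.16) and IARS1 (0.97). Translation factors had 3, of EIF3F (2.38), EIF4H (1.66) and EIF4A2 (0.42). EIF3F had 17 and 3 edited Cs against 4 and 0 in enzyme-only, EIF4H 5 and 10 against 0 and 11, and EIF4A2 27 and 38 against 19 and 30, so that the groups overlapped in all 3. They also overlapped in GARS1, with 7 and 4 against 0 and 13. Finally, DNA replication and repair had 1, of ATR, a DNA damage kinase (1.27). The 14 edited Cs of ATR in RBFOX2-INSCRIBE replicate 2 had a median edit fraction of 25%, against 1.69% in replicate 1, on an unknown number of reads. None of these lists held an isoform that passed against enzyme-only. Cell identity could be checked by listings alone: VIM, KRT18 and LIN28B of the HEK293T markers had sites in 5, 6 and 6 libraries and PAX2 in 0, and HBA1, PTPRC, COL1A1 and ALB had none.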

How the data were processed

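The deposited files list, per library, each edited C with its genome position (hg38), strand, isoform and edit fraction; the authors gave no read counts, so depth is unknown. Per the study's methods, full-length cDNA was read on a PacBio Revio, aligned with pbmm2 and assigned to isoforms with IsoQuant (unique assignments only). C-to-U calls came from custom scripts, and edits found in all samples and known polymorphisms were removed. The fraction is the authors' share of reads with U at the position, which takes coarse steps where few reads cover the position. The annotation release behind the deposited isoform names was not given in the sources used here, and GENCODE release 44 was applied; 99.7% of listings carried an isoform named there. Listings off the strand or exons of a retained intron isoform (371) were left out, and 13 positions listed on both X and Y were counted once. Every used position was a C in hg38.

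Edited Cs per isoform were counted and log2((edited Cs + 0.5) / Cs) was fitted with limma 3.58.1 in R 4.3.3 (trend and robust empirical Bayes), over all isoforms averaging 5 or more edited Cs in the libraries compared, with Benjamini-Hochberg adjustment at 0.05. Measures per library were compared with the exact permutation test, two-sided. Background for UGCAUG was a count over the Cs of the same exons. Scripts (Python 3.11.15, scipy 1.17.1) were tested on simulated data. The simulated counts for the fit gave all libraries the same size, so unequal totals, such as those of the enzyme-only libraries, were not simulated. Alternatives changed the edit fraction minimum, window, motif, background, definition of intron sequence, pseudocount, filter, scaling and samples.

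Named isoforms were the 10 with the largest difference from buffer-only that also exceeded both enzyme-only libraries, the 5 with the smallest p against enzyme-only, the 5 with the highest editsC, the 5 with the most sites near UGCAUG, those passing between controls, 3 genes in each direction of the isoform comparison, those of DEPDC1 and FAM135A, and the extremes of each gene list; named sites were the 6 and 3 described with their sequences. ENST00000607833 and the other protein-coding partners were named with their genes. The members, lists and rules were chosen with earlier results of these data known. The titles number the enzyme-only libraries 2 and 3, and another label numbers them 1 and 2.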

Additional observations from a re-analysis of the deposited data

Results flagged for a closer look

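Listings of retained intron isoforms on the strand opposite to the isoform, which no comparison above used, averaged 64 in RBFOX2-INSCRIBE (64 in each library) and were above all controls, with 52 and 61 in enzyme-only and 51 and 58 in buffer-only. The exact permutation test against enzyme-only gave p = 0.333, the smallest that 2 libraries against 2 allow. No group had enough libraries for a check of single outlying samples.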

How the results depend on the processing

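The UGCAUG, intron sequence and base context differences and the ratio of site numbers kept their direction under every alternative run. The UGCAUG difference ran from 0.412 to 1.38, and from 0.509 to 1.6 in intron sequence; the highest value of the first came with edit fractions of at least 0.02, and the lowest of both with GCAUG in place of UGCAUG. Leaving out the NFIA isoform gave 0.688 and 0.868, leaving out the 5 isoforms with the most near sites gave 0.746 and 0.878, and restricting intron sequence to protein-coding introns gave 0.933; these were chosen after seeing the data. The percentage-point difference in the share of exonic sites reversed to -0.0734 with edit fractions of at least 0.02 and to -0.0682 without positions shared with another isoform type, and ran from -0.0544 to 0.110 when 1 library was left out.

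Isoforms called against enzyme-only numbered 0 with a pseudocount of 0.1, a filter of 1 edited C, equal totals or edit fractions of at least 0.02, 2 with a filter of 10 and 3 with a pseudocount of 1, and from 0 to 46 when 1 library was left out, the latter without enzyme-only replicate 3. Against buffer-only they numbered 54 with a filter of 10, 2 with equal totals, 24 with edit fractions of at least 0.02 and 59 with all 3 groups in 1 fit, and from 10 (without RBFOX2-INSCRIBE replicate 2; 13 without replicate 1) to 66. Between the controls they numbered 1 with a pseudocount of 1, a filter of 1 or 1 fit, 0 with a filter of 10, equal totals or edit fractions of at least 0.02, and 0 whichever library was left out. Genes called numbered 1 with edit fractions of at least 0.02 and from 1 to 21 when 1 library was left out (10 without enzyme-only replicate 2, 21 without enzyme-only replicate 3).

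With the replicate block, 5 of 171 isoforms were called against enzyme-only, 85 of 164 against buffer-only and 1 of 99 between the controls, and 0 of 107 genes. Over all types of isoform the block gave 66 of 5717, 3024 of 5362 and 12 of 4438 in the same order. The pseudocount of 1 gave 59 of 5717 against enzyme-only over all types. Replicate deviations correlated at 0.108, 0.0244 and -0.0393 between groups, so the replicate numbers were not taken as pairs. Under the block, CEMIP2 (limma adjusted p = 0.0404), DEPDC1 (0.0475) and LUC7L2 (0.0356) passed against enzyme-only, and U2SURP (0.0731) no longer passed between the controls.

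With equal totals, the log2 difference from enzyme-only reversed to -0.48 in CLK1, -0.12 (ENST00000579461) and -0.076 (ENST00000581230) in DDX5, -0.40 in EIF4A2, -0.16 in RBM25 (ENST00000532683) and -0.36 in U2SURP, and with edit fractions of at least 0.02 to -0.090 in ATR. With 1 library left out it ran from -0.078 to 1.94 in ARGLU1, -0.39 to 1.06 in CLK1, -0.032 to 1.42 in DDX5 (ENST00000579461), -0.60 to 3.93 in EIF4H, -1.22 to 1.53 in GARS1, -0.22 to 1.93 in SCML1, -1.32 to 1.48 in SLC6A15 and -0.12 to 1.00 in U2SURP, each lowest without enzyme-only replicate 2. The causes were not tested. Depth is unknown, so the limits of detection cannot be stated.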
